A study of Equus caballus with 6 samples.

Results

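The enzymes that break down glucose and oxidise its carbon were examined in the 2 tissues of the horse (Equus caballus) blastocyst, the inner cell mass (ICM, the inner cells that give rise to the fetus) and the trophectoderm (TE, the outer epithelium that gives rise to the fetal part of the placenta). The list holds 46 named enzymes of glycolysis, of pyruvate entry into the mitochondrion, of the tricarboxylic acid (TCA) cycle and of the pentose phosphate pathway, with their regulatory kinases. Of these, 44 had a row under their own symbol among the 12270 rows of the deposited table. GAPDH and PGAM1 had none and were not analysed here. PKM and PKM2 are 2 rows of what RefSeq lists as a single gene, so the 44 rows stand for 43 genes.

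Blastocysts were recovered on day 8 from superovulated mares, all were treated with Pronase, a mix of proteases, and all libraries were made from amplified cDNA. The 3 ICM libraries, numbered 15, 22 and 25 in the titles, came from ICM isolated by immunosurgery, a procedure that destroys the outer cells with antibody and complement. The 3 TE libraries, numbered 16, 23 and 24, came from pieces of TE separated by hand. Tissue and isolation method coincide and cannot be told apart. The labels name neither the mares nor which ICM and TE shared a blastocyst, so a p-value reflects only how these libraries vary, which may in part be technical. In such bulk samples, fewer cells of a type and less RNA per cell cannot be told apart.

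As background, glycolysis splits glucose to pyruvate and yields some ATP. Lactate dehydrogenase interconverts pyruvate and lactate, while the pyruvate dehydrogenase complex commits pyruvate to the TCA cycle, which feeds electrons to the respiratory chain. The pentose phosphate pathway diverts glucose 6-phosphate to NADPH and to the ribose of nucleotides. Mammalian embryos rely mainly on pyruvate during cleavage, and their use of glucose increases as the blastocyst forms.

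RPKM, the unit of all levels here, is a read count scaled for gene length and for depth. The libraries held 6526212 to 10686659 reads over all rows, of which the 44 rows took 0.983% to 1.14%. ICM 25 stood apart from the other ICM libraries: over the 9436 genes tested, which are not independent replicates, it correlated at 0.864 and 0.895 with ICM 15 and 22, which correlated at 0.942 with each other. TE libraries correlated at 0.976 to 0.980. The 6 epiblast markers examined, from the pluripotent part of the ICM, summed to 127 and 131 RPKM in ICM 15 and 22. In ICM 25 the sum was 50.3 and in TE 36.3 to 56.7. POU5F1 made up most of it, with 36.0 RPKM in ICM 25 and 33.2 to 53.6 in TE. NANOG in ICM 25 was at 1.75 RPKM against 0.04 to 0.16 in TE, and KLF4 at 8.09 against 1.98 to 2.22. GDF3 and ETV4 in ICM 25 also lay above every TE library. SOX2 had 10 reads in ICM 25 and 0 in every TE library. The 5 of 6 TE markers in the table summed to 92.3 to 116 RPKM in TE and 11.6 to 23.2 in ICM, with ICM 25 at 18.2. Of the 6 blood markers only ALAS2 had a row, at 0.54 to 2.68 RPKM. The 5 of 6 hypoblast markers in the table summed to 64.6 and 64.98 RPKM in ICM 15 and 22, 21.8 in ICM 25 and 14.6 to 22.8 in TE. That sum hides opposite directions in ICM 25. GATA4 in ICM 25 was at 2.33 RPKM against 5.60 to 7.93 in TE, and GATA6 also lay below every TE library. PDGFRA in ICM 25 was at 6.14 RPKM against 0.65 to 2.58 in TE, and BMP2 and CITED1 also lay above every TE library. The 2 of 6 oocyte and cumulus markers summed to 27.95 RPKM in ICM 25, 4.62 and 7.001 in ICM 15 and 22 and 5.53 to 19.2 in TE. CYP19A1 alone made up most of that sum, at 26.1 RPKM in ICM 25 and 5.36 to 19.1 in TE. GDF9, the other row, was at 0.27, 0.48 and 1.81 RPKM in ICM 15, 22 and 25 and 0.12 to 0.18 in TE. It rested on 10, 22 and 67 reads in ICM and 5 to 7 in TE. The 3 of 6 endometrium markers summed to 3.86 to 7.23 RPKM in all libraries. The part that these differences play in the results below was not tested, and each result that rests on ICM 25 is also given without it.

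The enzymes were abundant in both tissues. Their median level was 33.5 RPKM in ICM and 38.8 in TE, where the median over all genes tested was 5.78 and 6.24 RPKM. At 50 RPKM or more stood 18 of the 44 rows in either tissue, or 40.9%, against 6.30% and 7.27% of all genes tested. Within each tissue the rows covered a wide span of levels. LDHB had the highest mean in both, at rank 134 of all rows in ICM and 125 in TE, while the lowest means were those of pyruvate carboxylase (PC) in ICM and the aldolase ALDOC in TE.

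**Figure D1:**
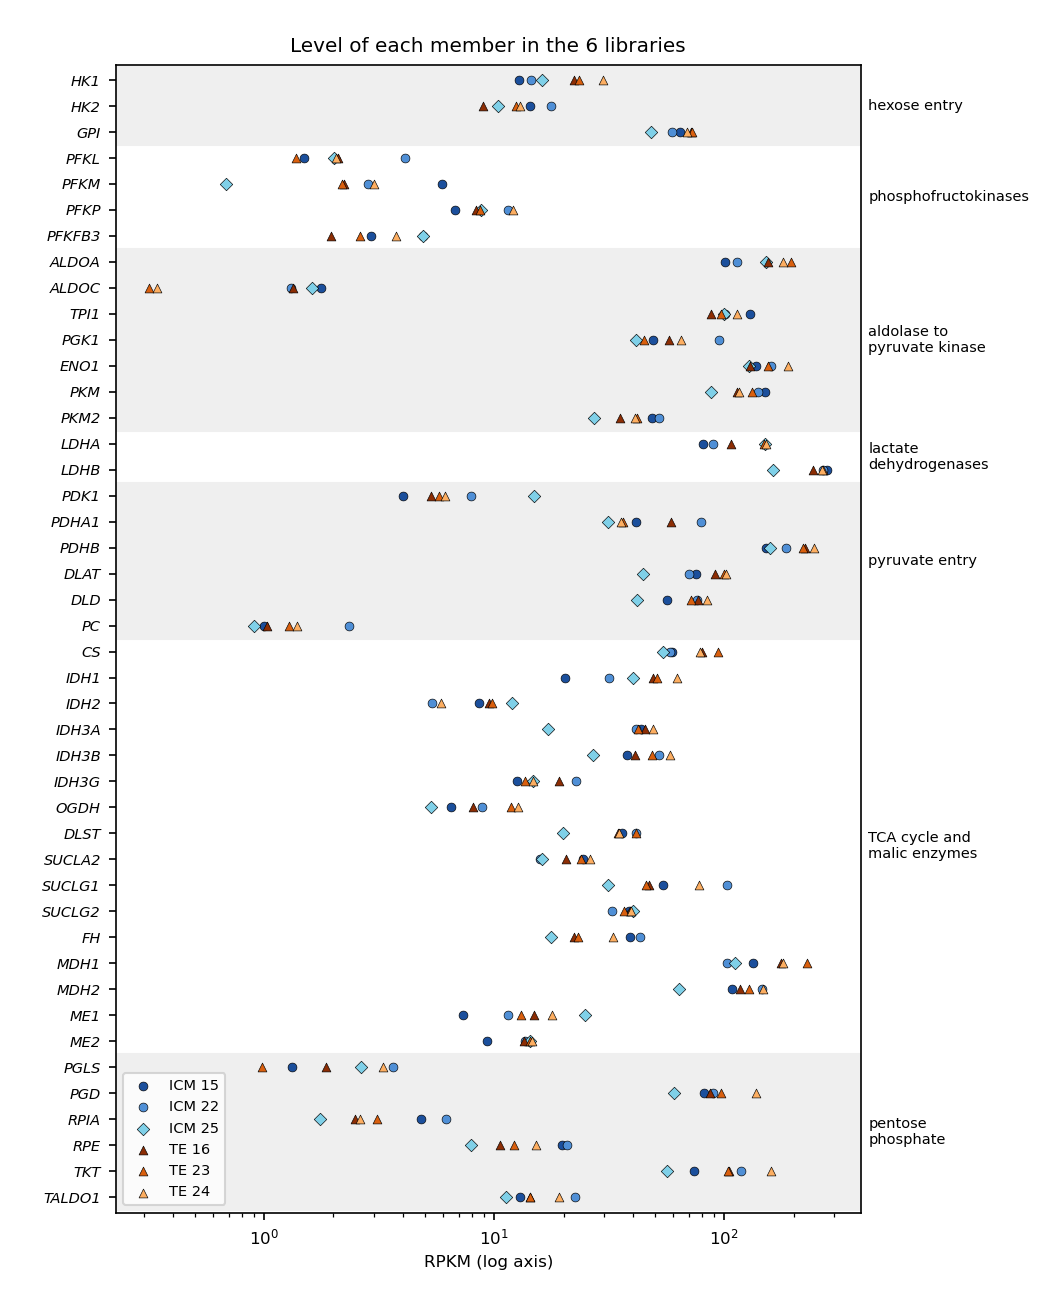
RPKM of the 44 rows on a log axis, 1 symbol per library, with rows grouped by step of the pathway (circles and diamonds for ICM, triangles for TE, the diamond for ICM 25). LDHB and PDHB lie at the right with more than 150 RPKM in every library, and PC, ALDOC, PGLS and the liver and muscle phosphofructokinases lie at the left.

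No row passed the test between the tissues. With limma on log2(RPKM + 1) and Benjamini-Hochberg adjustment over all 9436 genes tested, 0 of 44 rows had an adjusted p under 0.05, where 1.87% of genes did (0.933% with ICM higher and 0.933% with TE higher). At an unadjusted p under 0.05, 1 row was higher in ICM (background 5.28%) and 5 were higher in TE (11.4% of the rows, background 11.6%), which makes 6 in either direction (background 16.9%). limma's voom method on reads recovered from the table also called 0 rows, where it called 1.32% of all genes, and had 8 (18.2%) at an unadjusted p under 0.05, where 16.4% of all genes were. The median log2 difference, ICM minus TE, was -0.13 over the 44 rows and -0.15 over all genes tested. Differences of the rows ran from -0.84 for IDH1 to 0.68 for ALDOC, so all point estimates lay within a 2-fold change on this scale. The added 1 shrinks differences of low rows, and the ratio of mean RPKM, ICM over TE, was 2.36 for ALDOC.

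**Figure D2:**
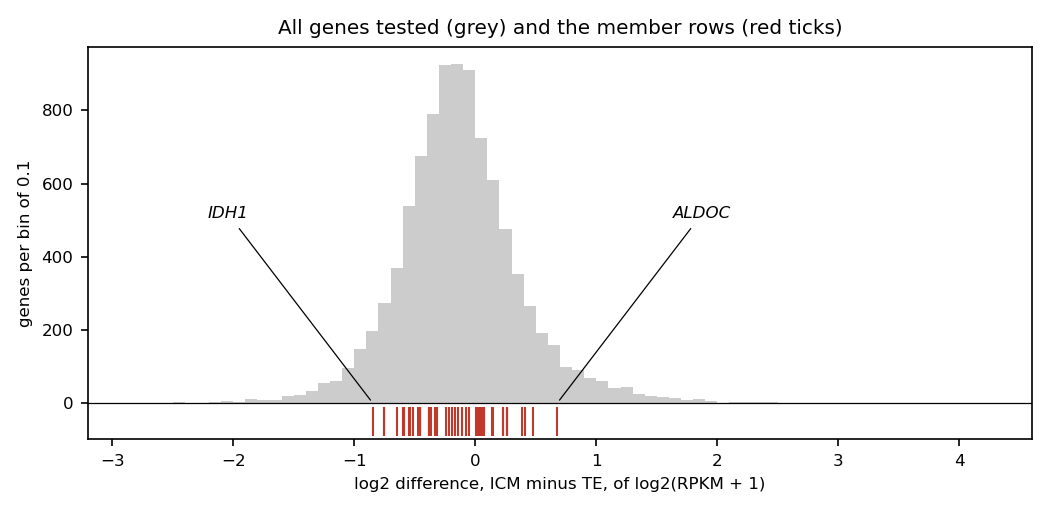
Log2 differences, ICM minus TE, of the 9436 genes tested (grey, genes per bin of 0.1) with the 44 rows as red ticks below. The ticks run from -0.84 (IDH1) to 0.68 (ALDOC) and spread around the same centre as the grey distribution.

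In 8 rows the 3 ICM values all lay below the 3 TE values: HK1, GPI, ALDOA, PDHB, DLAT, CS, IDH1 and MDH1. That is 18.2% of the rows, beside a background of 17.8%. The opposite pattern occurred in 0 rows, against 6.81% of all genes. These counts moved with the scaling. When libraries were rescaled by the median of ratios, a step that brought the median of all genes from -0.15 to 0.01, 4 rows did not overlap with TE higher (DLAT, DLD, MDH1 and PGD) and 1 with ICM higher (HK2), against 12% and 12.8% of genes. Without ICM 25, 10 rows (22.7%, background 22.8%) were apart with TE higher and 6 (13.6%, background 21.6%) with ICM higher.

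**Figure D3:**
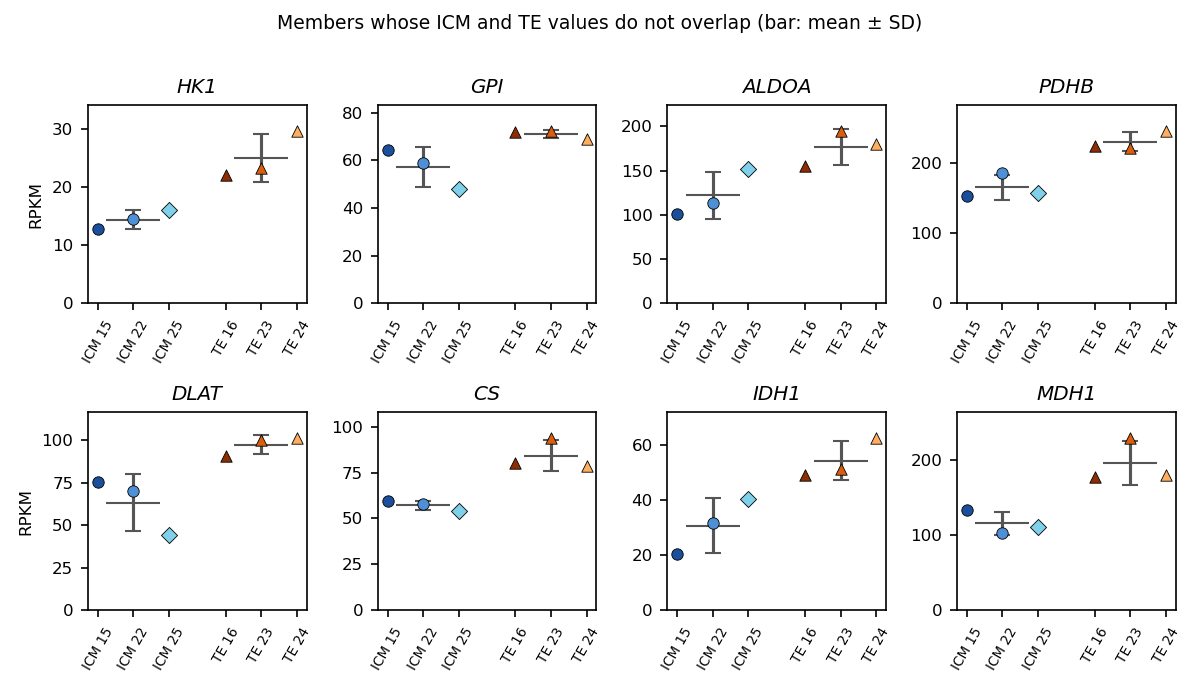
RPKM of the 8 members whose ICM and TE values do not overlap, 1 point per library, with the mean and SD of each tissue as a bar. In every panel the lowest TE point lies above the highest ICM point, by little in ALDOA (155 against 152) and by more in CS (78.4 against 59.3).

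Glucose enters the pathway through hexokinase. HK1, the hexokinase of most tissues, stood at 12.8, 14.5 and 16.1 RPKM in ICM 15, 22 and 25 and at 22.2, 23.3 and 29.7 in TE 16, 23 and 24. All TE values were higher than all ICM values, and the TE mean was 1.74 times that of ICM (log2 difference -0.75, SE 0.24, limma adjusted p = 0.16). HK1 passed without ICM 25 (log2 difference -0.83, limma adjusted p = 0.033). HK2, the hexokinase of muscle and of many fast-growing cells, stood at 14.2, 17.7 and 10.3 RPKM in ICM and 8.92, 12.4 and 12.95 in TE, where the tissues overlapped through ICM 25. The ratio of HK1 to HK2, which does not depend on how libraries are scaled, was 0.90, 0.82 and 1.56 in ICM and 2.49, 1.88 and 2.30 in TE. HK1 was thus below HK2 in ICM 15 and 22 and above it in ICM 25 and all TE libraries. GPI, which converts glucose 6-phosphate to fructose 6-phosphate, varied little in TE (71.7, 72.3 and 69.1 RPKM). Its ICM values of 64.4, 59.0 and 48.0 RPKM were all lower, with a log2 difference of -0.32 (95% confidence interval -0.83 to 0.19).

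Phosphofructokinase, the committed step, was the least abundant stage between glucose and pyruvate in these rows. PFKP, the platelet type, led with 8.98 ± 2.33 RPKM (mean ± SD, n = 3, as for all such values) in ICM and 9.71 ± 2.09 in TE. The liver type PFKL was at 2.54 ± 1.39 RPKM in ICM against 1.84 ± 0.41 and the muscle type PFKM at 3.15 ± 2.64 and 2.47 ± 0.47. PFKM varied most among the ICM libraries, with 5.93, 2.83 and 0.68 RPKM (345 reads in ICM 15 and 39 in ICM 25) against 2.18 to 3.01 in TE. The ratio of PFKP to PFKM was 1.14, 4.04 and 12.9 in ICM and 3.74, 3.98 and 4.02 in TE. PFKFB3, which makes fructose 2,6-bisphosphate, the allosteric activator of phosphofructokinase, had 2.91, 4.91 and 4.92 RPKM in ICM and 1.96, 2.60 and 3.73 in TE. The groups overlapped, and its log2 difference was 0.48 (95% confidence interval -0.17 to 1.13).

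The middle of glycolysis was highly expressed. ALDOA, which cleaves fructose 1,6-bisphosphate and is the aldolase of muscle and most cells, stood at 101, 113 and 152 RPKM in ICM and 155, 195 and 180 in TE. ICM 25 reached nearly to TE 16 there. The log2 difference was -0.54 (SE 0.25, limma adjusted p = 0.32), and without ICM 25 it was -0.71 and passed (limma adjusted p = 0.045). The brain aldolase ALDOC had the opposite order at low level, with 1.77, 1.31 and 1.62 RPKM in ICM and 1.33, 0.32 and 0.34 in TE. It had the largest difference with ICM higher (log2 difference 0.68, SE 0.28, limma adjusted p = 0.28), and rested on 7 to 50 reads per library. The ratio of ALDOA to ALDOC was 57.0, 86.5 and 93.7 in ICM and 117, 614 and 524 in TE, so every TE library lay above every ICM library. In TE 23 and 24 this ratio rested on 7 and 10 reads of ALDOC. Of all the ratios examined, only this one and HK1 to HK2 separated the tissues. No background share was computed for ratios.

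ENO1, the enolase of most tissues, was at 137, 159 and 128 RPKM in ICM and 129, 154 and 189 in TE. TPI1, triose phosphate isomerase, was at 130, 100 and 99.9 RPKM in ICM and 87.3, 96.6 and 114 in TE. Both overlapped, with confidence intervals of -0.70 to 0.41 for ENO1 and -0.40 to 0.68 for TPI1. PGK1, the first ATP-yielding kinase of the pathway, had 49.0, 94.8 and 41.2 RPKM in ICM, where ICM 22 stood out, and 57.3, 44.9 and 64.6 in TE. Pyruvate kinase was read through 2 rows. PKM was at 150, 140 and 87.4 RPKM in ICM and 113, 132 and 116 in TE, and the row named PKM2 at 48.3, 52.1 and 27.0 in ICM and 35.2, 41.9 and 41.0 in TE. In both, ICM 15 and 22 were the highest libraries and ICM 25 the lowest. The ratio of the rows was 2.69 to 3.23 in all 6 libraries. The row name PKM2 does not identify the splice form of that name, and no splice form was measured here.

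Lactate dehydrogenase is a tetramer of the subunits encoded by LDHA, favoured in glycolytic tissue, and LDHB, favoured in heart. LDHB, the most abundant row, had 280, 267 and 163 RPKM in ICM and 242, 270 and 266 in TE. LDHA had 81.0, 88.9 and 151 RPKM in ICM and 107, 149 and 152 in TE. ICM 25 therefore held the lowest LDHB of all 6 libraries and an LDHA level within 1 RPKM of TE 24. The ratio of LDHA to LDHB was 0.29 and 0.33 in ICM 15 and 22, 0.44, 0.55 and 0.57 in TE, and 0.92 in ICM 25. The mean ratio of the tissues was nearly the same, 0.52 ± 0.35 in ICM and 0.52 ± 0.07 in TE, although no ICM library lay within the TE range. Without ICM 25, LDHA had a log2 difference of -0.66 (limma adjusted p = 0.080) and LDHB one of 0.08 (adjusted p = 0.82).

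**Figure D4:**
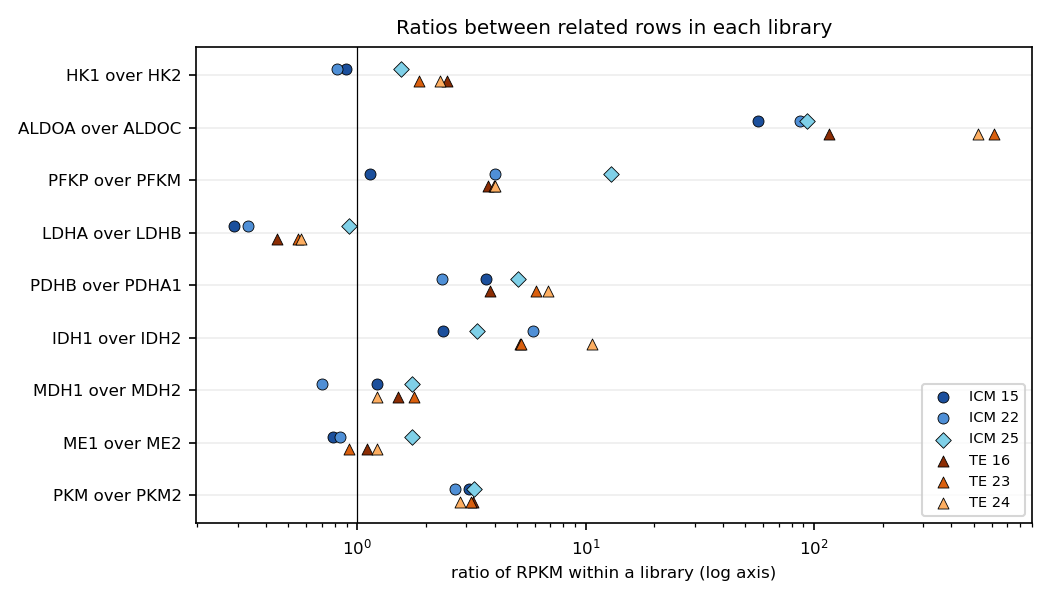
Ratio of RPKM between related rows within each library, on a log axis (circles and diamonds for ICM, triangles for TE, the diamond for ICM 25). HK1 over HK2 and ALDOA over ALDOC separate the tissues, and no other ratio shown does. LDHA over LDHB places ICM 15 and 22 below TE (0.29 and 0.33) and ICM 25 above it (0.92), and PKM over PKM2 stays at 2.69 to 3.23.

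At the entry of pyruvate into the mitochondrion, subunits of the pyruvate dehydrogenase complex differed in level and in pattern. PDHB, the beta subunit of its decarboxylase, had 152, 186 and 158 RPKM in ICM and 224, 221 and 245 in TE, a TE mean 1.39 times that of ICM (log2 difference -0.48, SE 0.22, limma adjusted p = 0.33). DLAT, the acetyltransferase core, had 75.6, 70.1 and 44.3 RPKM in ICM and 91.1, 100.05 and 101 in TE. Its log2 difference was -0.65 (SE 0.27, limma adjusted p = 0.26) and -0.42 without ICM 25. DLAT kept its separation of the tissues after rescaling by the median of ratios. DLD, the dehydrogenase that this complex shares with the TCA cycle's oxoglutarate dehydrogenase, was at 56.6, 75.9 and 41.7 RPKM in ICM and 77.0, 72.0 and 84.3 in TE. PDHA1, the alpha subunit encoded on the X chromosome, did not follow PDHB. It had 41.5, 79.2 and 31.2 RPKM in ICM and 58.8, 36.4 and 35.6 in TE, so ICM 22 and TE 16 were high. The ratio of PDHB to PDHA1 therefore ranged from 2.35 in ICM 22 to 6.89 in TE 24. PDK1, a kinase that inactivates the complex, stood at 4.002, 7.94 and 14.9 RPKM in ICM and within 5.30 to 6.09 in TE. Its log2 difference of 0.41 became -0.01 without ICM 25. PC, which makes oxaloacetate from pyruvate, was close to the detection filter at 1.42 ± 0.80 RPKM in ICM and 1.23 ± 0.18 in TE.

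Of the 16 rows of the TCA cycle and malic enzymes, 3 had tissues that did not overlap with TE higher, namely IDH1, MDH1 and CS. The background was 17.8% of all genes tested, so this count is near that share. After rescaling by the median of ratios, IDH1 and CS overlapped and MDH1 did not. IDH1, the cytosolic isocitrate dehydrogenase that makes NADPH, had 20.3, 31.7 and 40.2 RPKM in ICM and 49.2, 51.2 and 62.5 in TE. The TE mean was 1.77 times that of ICM (log2 difference -0.84, SE 0.29, limma adjusted p = 0.19). IDH1 passed without ICM 25 (log2 difference -1.06, limma adjusted p = 0.024) and with library weights estimated by limma (-0.91, adjusted p = 0.039). It passed in no other alternative, where the limma adjusted p reached up to 0.54. MDH1, the cytosolic malate dehydrogenase, had 133, 102 and 111 RPKM in ICM and 177, 229 and 180 in TE. Its log2 difference of -0.75 (SE 0.24, limma adjusted p = 0.16) hardly moved without ICM 25 (-0.73, limma adjusted p = 0.061) and stayed apart after rescaling. The mitochondrial counterparts overlapped between the tissues. IDH2 was at 8.63 ± 3.30 RPKM in ICM and 8.38 ± 2.17 in TE, while MDH2 was at 106 ± 40.9 and 131 ± 15.1. That IDH1 and MDH1 differ more than IDH2 and MDH2 was not tested.

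CS, citrate synthase, had the lowest coefficient of variation of the 44 rows in ICM, with 59.3, 57.9 and 54.1 RPKM. Its TE values were 80.2, 93.8 and 78.4 RPKM (log2 difference -0.55, SE 0.22, limma adjusted p = 0.25), and the difference was -0.51 without ICM 25. The subunits of the mitochondrial NAD-linked isocitrate dehydrogenase stood at 43.4, 41.2 and 17.0 RPKM in ICM against 42.1 to 49.1 in TE for the catalytic IDH3A. IDH3B was at 37.6, 52.1 and 26.9 RPKM in ICM against 41.0 to 58.0. IDH3G, also on the X chromosome, had 12.6, 22.7 and 14.7 RPKM in ICM and 13.5 to 19.1 in TE. The log2 difference of IDH3A, -0.52 with all libraries, was -0.10 without ICM 25. OGDH, the decarboxylase of the oxoglutarate dehydrogenase complex, was at 6.51, 8.85 and 5.31 RPKM in ICM and 8.10, 11.8 and 12.7 in TE. Its core partner DLST was 2.73 to 5.51 times as abundant in every library.

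Succinyl-CoA ligase pairs the alpha subunit SUCLG1 with an ADP-forming (SUCLA2) or a GDP-forming (SUCLG2) partner. SUCLG2 was at 37.0 ± 3.95 RPKM in ICM and 38.3 ± 1.37 in TE, with a log2 difference of -0.05 (95% confidence interval -0.55 to 0.45). SUCLA2 was lower in level, at 18.7 ± 4.82 RPKM in ICM and 23.5 ± 2.84 in TE. SUCLG1 varied widely, with 54.3, 103 and 31.4 RPKM in ICM and 47.3, 45.6 and 77.4 in TE. FH, fumarase, had the pattern of 2 high ICM libraries and 1 low: 38.8, 43.1 and 17.6 RPKM, against 22.3, 23.1 and 32.8 in TE. Its log2 difference was 0.26 with all libraries and 0.65 without ICM 25 (limma adjusted p = 0.085). The malic enzymes, which turn malate to pyruvate, were at 7.30, 11.4 and 24.9 RPKM in ICM for the cytosolic ME1, where ICM 25 exceeded every other library, and at 13.1 to 17.8 in TE. The mitochondrial ME2 was at 12.4 ± 2.72 and 14.1 ± 0.60 RPKM.

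In the pentose phosphate pathway, PGD and TKT were the most abundant of the 6 rows. PGD, which yields NADPH and ribulose 5-phosphate, had 81.98, 89.0 and 60.2 RPKM in ICM and 86.8, 96.9 and 137 in TE (log2 difference -0.46, limma adjusted p = 0.44). PGLS, the lactonase before it, was at 2.53 ± 1.16 RPKM in ICM and 2.05 ± 1.17 in TE, on 15 to 87 reads per library. TKT, transketolase, had 74.1, 118 and 56.6 RPKM in ICM and 105, 103 and 159 in TE (log2 difference -0.60, limma adjusted p = 0.40). TALDO1, transaldolase, was at 15.6 ± 6.004 and 15.9 ± 2.78 RPKM. The pentose isomerase RPIA had 4.82, 6.19 and 1.75 RPKM in ICM and 2.49 to 3.08 in TE, and the epimerase RPE 19.7, 20.6 and 7.92 in ICM and 10.6 to 15.2 in TE. In both, ICM 15 and 22 lay above all TE libraries and ICM 25 below them. Without ICM 25 RPIA passed with ICM higher (log2 difference 0.80, SE 0.21, limma adjusted p = 0.0496) and RPE did not (0.65, adjusted p = 0.073).

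**Figure D5:**
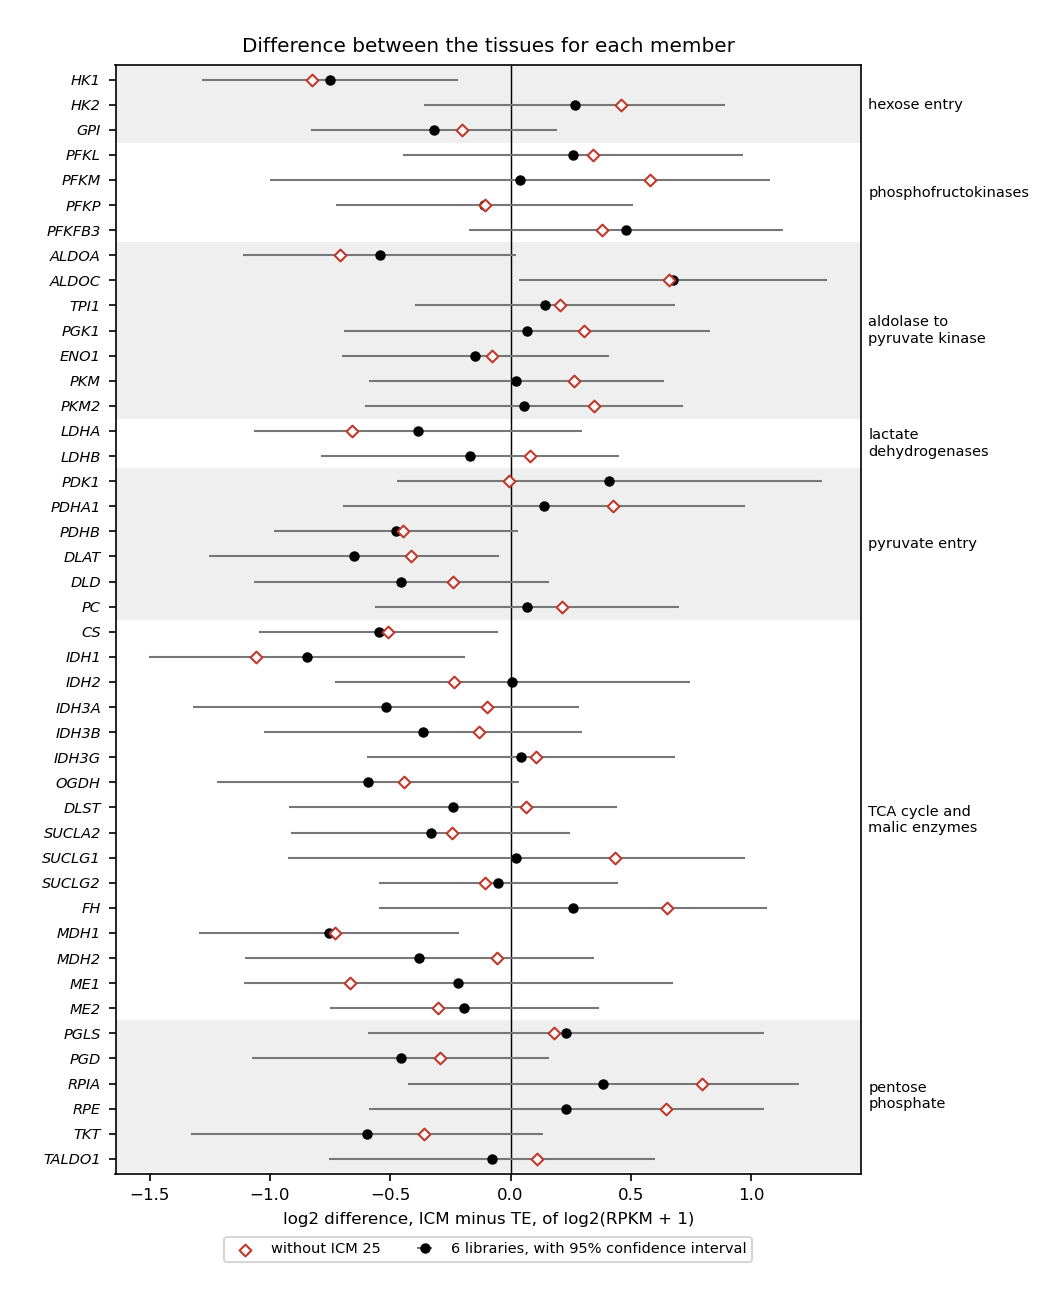
Log2 difference, ICM minus TE, of each row with its 95% confidence interval from limma on all 6 libraries (black), and the difference without ICM 25 (red diamonds). Black points for HK1, DLAT, CS, IDH1 and MDH1 have intervals below 0 and the interval of ALDOC lies above 0, before adjustment over all genes, and leaving out ICM 25 moves RPIA from 0.39 to 0.80.

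ICM 25 was the lowest of the 6 libraries in 24 of 44 rows, or 54.5%, where it was lowest for 50.9% of all genes tested. It was the highest in 5 rows (11.4%, background 9.95%), namely PFKFB3, PDK1, IDH2, SUCLG2 and ME1. The median coefficient of variation of the rows was 31.9% over the 3 ICM libraries, 20.6% over ICM 15 and 22 and 15.9% in TE. Over all genes tested the same medians were 36.6%, 20.7% and 16.1%. Without ICM 25, limma called 3 rows higher in TE (HK1, ALDOA and IDH1, 6.82% of the rows, background 5.62%) and RPIA alone higher in ICM (2.27%, background 5.89%), or 4 in either direction (background 11.5%). At an unadjusted p under 0.05 there were 9 with TE higher (background 14.3%) and 3 with ICM higher (background 13.4%), where 27.8% of genes reached it in either direction.

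The authors' deposited table holds their own comparison with DESeq, a count model. In it 3 of the 44 rows had an adjusted p under 0.05 with TE higher, where 5.93% of all rows did, and 0 with ICM higher, where 10.7% did (16.6% in either direction). The 3 were HK1, IDH1 and MDH1, with adjusted p of 0.017, 0.014 and 0.040 in the authors' deposited table. There, with no genome build named, HK1 lies on chromosome 1 (57542043 to 57608362), IDH1 on chromosome 18 (82105891 to 82118379) and MDH1 on chromosome 15 (37984638 to 38003560). The same table places CS on chromosome 6 (73932860 to 73953220), DLAT on chromosome 7 (20554909 to 20594278), PDHB on chromosome 16 (30082385 to 30198098), ALDOA on chromosome 13 (19618482 to 19621201) and GPI on chromosome 10 (5434436 to 5460230).

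With all libraries, other genes of these pathways, from 6 lists, likewise gave 0 calls in limma in either direction (75 of 120 tested). Without ICM 25, limma called 4 with ICM higher (background 5.89%) and 4 with TE higher (background 5.62%). In 25 of the 75 all TE values lay above all ICM values (background 17.8%), and in 4 the reverse held (background 6.81%). Leaving out ICM 25, these were 31 and 12 (backgrounds 22.8% and 21.6%). No test was made of these counts. The authors' DESeq comparison had 6 of the 75 with ICM higher and 7 with TE higher at an adjusted p under 0.05 (backgrounds 10.7% and 5.93%). In limma with all libraries, 4 had ICM higher and 11 had TE higher at an unadjusted p under 0.05, where 5.28% and 11.6% of all genes did. Among 19 tested genes of pyruvate dehydrogenase and the TCA cycle, 2 had ICM higher (background 5.28%) and 6 had TE higher (background 11.6%) at that level. PDHX, the protein that anchors DLD in the pyruvate dehydrogenase complex, had 10.4, 10.9 and 10.6 RPKM in ICM and 16.0, 16.9 and 16.5 in TE (log2 difference -0.59, limma adjusted p = 0.21). PDP1, a phosphatase that reactivates the complex and so opposes PDK1, lay on the other side, at 10.6, 10.3 and 7.51 RPKM in ICM and 4.96, 4.33 and 4.595 in TE (log2 difference 0.88, limma adjusted p = 0.11, and 0.014 without ICM 25). Another phosphatase of the complex, PDP2, had the opposite order, at 4.59, 3.78 and 5.52 RPKM in ICM and 7.52, 7.89 and 6.94 in TE. Its log2 difference was -0.60 (limma adjusted p = 0.25) and -0.71 without ICM 25 (adjusted p = 0.053). The ratio of PDK1 to PDP1, which leaves PDP2 out, was 0.38 and 0.77 in ICM 15 and 22, 1.99 in ICM 25 and 1.07 to 1.33 in TE.

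ACLY, which splits citrate exported to the cytosol into acetyl-CoA and oxaloacetate, had 28.7, 28.9 and 16.1 RPKM in ICM and 42.5, 40.9 and 69.9 in TE (log2 difference -1.03, limma adjusted p = 0.16). GOT1, the cytosolic aspartate aminotransferase that works with MDH1 in the malate-aspartate shuttle, had 22.2, 19.98 and 13.1 RPKM in ICM and 30.3, 39.4 and 32.9 in TE (log2 difference -0.88, limma adjusted p = 0.15). In both, all TE values were higher than all ICM values. Succinate dehydrogenase is the TCA enzyme that sits in the respiratory chain. Its subunits SDHA, SDHB and SDHD had all ICM values below all TE values, as had 17.8% of all genes tested. SDHB, for example, was at 99.9, 99.9 and 62.2 against 129, 153 and 137 RPKM. SDHC had a higher mean in ICM (46.3 ± 13.3 against 38.1 ± 3.26), but its tissues overlapped (59.3, 46.8 and 32.7 against 34.8 to 41.3 RPKM). Whether the subunits differ from each other in direction was not tested. The log2 differences were -0.70 for SDHB and 0.24 for SDHC, neither called (limma adjusted p = 0.22 and 0.72).

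Of 10 tested other genes of glycolysis and gluconeogenesis, LDHC, a lactate dehydrogenase best known from testis, was higher in ICM at an unadjusted p under 0.05, at 1.71, 1.08 and 2.30 RPKM against 0.56, 0.36 and 0.31 (limma adjusted p = 0.11). Of 6 other pentose phosphate genes none reached that level. Among 18 tested genes of glycogen and sugar interconversion, 0 had ICM higher and 2 had TE higher at an unadjusted p under 0.05 (backgrounds 5.28% and 11.6%). The phosphorylase kinase subunit PHKB, for example, was at 6.57 ± 1.12 RPKM in ICM and 11.5 ± 0.80 in TE (limma adjusted p = 0.16).

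Among the 6 tested carriers none reached an unadjusted p under 0.05. The glucose carrier SLC2A1 was at 53.7 ± 15.0 RPKM in ICM and 58.3 ± 5.72 in TE, while the monocarboxylate carrier SLC16A1 was at 33.6 ± 3.49 and 42.6 ± 2.43. Among 16 tested regulators, 1 was higher in ICM and 3 in TE at that level (backgrounds 5.28% and 11.6%). The hypoxia-inducible factor subunit EPAS1 had 3.39, 8.43 and 13.05 RPKM in ICM and 21.6, 33.5 and 27.9 in TE. All TE values were higher, with a log2 difference of -1.76 (SE 0.41, limma adjusted p = 0.073, and 0.0089 without ICM 25). Its relative HIF1A was nearly level, at 42.5 ± 0.44 and 44.4 ± 1.79 RPKM. MYC, a transcription factor of growth, was at 2.63 ± 2.20 RPKM in ICM and 8.01 ± 2.45 in TE, while the orphan nuclear receptor ESRRB was at 1.55 ± 0.80 and 3.79 ± 0.37.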

How the data were processed

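Per the file headers, the deposited table gives RPKM for 3 ICM and 3 TE libraries, a signal per gene averaged across libraries (baseMean), and the authors' log2 fold change, p-value and adjusted p-value. The authors used FastQC and DESeq, per the submitters' processing notes. Aligner, counter, strand setting, build and annotation: not given in the sources used here, so reads shared with near copies or pseudogenes (ALDOA, ENO1, LDHA, LDHB, PGK1, TPI1) make those values less certain. Every row has at least 0.4 RPKM in 2 libraries.

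Genes entered the test if 3 or more libraries had 1 RPKM or more (9436, all 44 rows of the list among them). The linear model of limma 3.58.1 (R 4.3.3) was applied to log2(RPKM + 1) (trend, two-sided, Benjamini-Hochberg, threshold 0.05). Log2 differences (ICM minus TE) refer to that scale and understate changes of low genes. Reads were recovered from RPKM and baseMean: 100% of values of up to 1000 reads were whole within 0.01. They come from amplified cDNA without molecular identifiers. The alternatives were pseudocount, filter, scaling, library weights, voom and leaving out each library. Counts of members whose tissues do not overlap were repeated under rescaling and without ICM 25 after the data were seen.

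The enzymes and lists were chosen with earlier results of these data known. Values per library are printed for members with an unadjusted p under 0.05, with tissues that do not overlap, or among the 6 most abundant, and for further members chosen after their values were seen. Other pathway genes are named by an unadjusted p under 0.05 (up to 4 per list) or a shared enzyme, and the succinate dehydrogenase subunits, SLC2A1, SLC16A1 and HIF1A were added after their values were seen. Some genes of these lists are not reported here. RefSeq names follow assembly TB-T2T, and all 44 rows matched it.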

Additional observations from a re-analysis of the deposited data

How the results depend on the processing

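No paired analysis was possible because ICM and TE libraries share no number. Rows called higher in TE, 0 with all libraries, were 1 with library weights (IDH1) and 0 to 3 with each library left out. Those higher in ICM, also 0, were 0 to 1 with each library left out. Calls under both counts came with ICM 25 left out, and the cause was not tested. Over all genes, the 88 calls with ICM higher numbered 29 under a 5 RPKM minimum (fewer genes tested), 365 with library weights and 0 to 556 with each library left out. The 88 with TE higher numbered 49 at pseudocount 0.1, 54 unfiltered, 52 under a 5 RPKM minimum, 395 with library weights and 0 to 530. No call was left without TE 16 and 1 without TE 23 or TE 24. Of 9 members with an unadjusted p under 0.05 or separate tissues, no direction turned in any alternative. The members with a negative log2 difference, however, fell from 25 of 44 to 20 after rescaling by the median of ratios. Depth limits ALDOC and PGLS most.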

Other observations

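Members on the X chromosome had a pattern across libraries that did not follow the tissues. PDHA1, PGK1 and IDH3G were each highest in ICM 22, at 79.2, 94.8 and 22.7 RPKM. Of the 9 X-linked genes among the members and the other pathway lists, ICM 22 was the highest library for 5. Of the 304 genes tested on the deposited table's X chromosome, ICM 22 was the highest library for 50%, and of the 9132 other genes for 22.7%. This grouping was chosen after the values were seen, genes of 1 library are not independent, and no test was made.

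In 2 further genes of sugar metabolism, ICM 25 lay outside the range of the other libraries, in opposite directions. AKR1B1, the aldose reductase that turns glucose to sorbitol, had 282 and 315 RPKM in ICM 15 and 22 and 74.0 in ICM 25, against 111 to 133 in TE. GFPT1, which starts hexosamine synthesis, had 19.7, 30.5 and 76.7 RPKM in ICM and 50.2 to 52.5 in TE. Both were chosen after their values were seen. Without ICM 25, AKR1B1 passed with ICM higher (log2 difference 1.27, limma adjusted p = 0.0067) and GFPT1 with TE higher (-1.03, adjusted p = 0.021).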
